A study of Mus musculus with 15 samples.

Results

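Border-associated macrophages live in the meninges, the choroid plexus and the spaces around brain vessels, and microglia live in the brain tissue itself. The 8 genes described here, F13a1, Mrc1, Ms4a7, Pf4, Cd163, Cp, Lyve1 and Cbr2, are genes named for border-associated macrophages. They were followed in ATAC-seq peak lists, in which a transposase marks open DNA, of 15 libraries of sorted mouse microglia. A peak belonged to a gene when its summit lay nearest to that gene's body and within 100 kb, by the RefSeq genes of GRCm38.p6. Of 2395238 peaks in the 15 lists, 1100 belonged to the 8 genes. A region was built around each summit among the 30000 top peaks of any list, ranked by the authors' −log10 p with rank 1 the strongest, and summits within 400 bp were merged. Of 65410 such regions, 33 belonged to the 8 genes and are called sites here. The nearest gene is a position and not a shown target.

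All mice were labelled C57BL/6, and the cells of all 15 libraries were labelled microglia sorted by flow cytometry. Untreated WT and IRF8KO mice, the latter lacking the myeloid transcription factor IRF8, were sampled at postnatal days 9 and 14 (P9 and P14). WT and 5xFAD mice were sampled at 10 months, and all of these, WT included, had received methoxy-X04, a dye that binds amyloid. The 5xFAD line carries human amyloid transgenes under a neuronal promoter, and its microglia were split by the dye into X04 negative and X04 positive cells. IRF8KO at P9 had 3 libraries and each of the other 6 groups had 2. The labels give no details of the Irf8 deletion and leave unsaid whether any 2 libraries of a group are from different mice.

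The lists held 126070 to 194399 peaks, and the −log10 p at rank 30000 ran at P9 from 39.07 to 54.31 for WT and from 73.4 to 80.65 for IRF8KO. At P14 it ran from 61.78 to 68.19 for WT and from 22.83 to 26.55 for IRF8KO, and it was 18.63 to 24.3 in the WT and X04 negative libraries at 10 months. The 2 X04 positive libraries stood apart at 6.04 and 6.29. In bulk sorted cells, a site open in more cells and a site more open in each cell cannot be told apart. A site was called strong in a library when one of its 30000 top peaks had a summit within 200 bp. Of 16 regions nearest to Irf8 itself, 11 to 12 were strong in each juvenile WT library and 9 to 11 in each IRF8KO library, and the peak lists do not show whether its product is made.

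The receptors among the 8 genes are Mrc1, the mannose receptor, Cd163, which takes up haemoglobin bound to haptoglobin, and Lyve1, a hyaluronan receptor. Ms4a7 is a membrane protein of macrophages with several membrane spans. Pf4 is a chemokine first known from platelets, F13a1 is the catalytic subunit of coagulation factor XIII, Cp is the copper-carrying ferroxidase ceruloplasmin, and Cbr2 is a carbonyl reductase. IRF8 acts with the lineage factor PU.1 at many enhancers of myeloid cells, and PU.1 is required for macrophages in general.

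The 250 bases before the starts of Ms4a7 and Pf4 are shown because these 2 starts were among the sites strong in IRF8KO alone. The Mrc1 start is shown beside them as a start with a weak peak in both genotypes. Sequences are from RefSeq, GRCm38.p6, written 5′ to 3′ on the gene's strand, with matches to any of 10 searched motifs in capitals. The Ms4a7 stretch is chr19:11336147-11336396 on the minus strand, the Pf4 stretch is chr5:90772185-90772434 on the plus strand, and the Mrc1 stretch is chr2:14229164-14229413 on the plus strand.
Ms4a7: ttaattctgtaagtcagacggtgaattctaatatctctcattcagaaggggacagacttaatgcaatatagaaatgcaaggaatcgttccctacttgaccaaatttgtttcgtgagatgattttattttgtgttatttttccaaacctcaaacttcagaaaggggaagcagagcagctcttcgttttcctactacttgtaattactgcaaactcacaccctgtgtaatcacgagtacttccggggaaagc
Pf4: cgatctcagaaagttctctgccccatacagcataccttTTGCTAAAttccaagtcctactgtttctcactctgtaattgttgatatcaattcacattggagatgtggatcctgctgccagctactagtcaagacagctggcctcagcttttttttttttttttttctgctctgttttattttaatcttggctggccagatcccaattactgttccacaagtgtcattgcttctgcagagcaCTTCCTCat
Mrc1: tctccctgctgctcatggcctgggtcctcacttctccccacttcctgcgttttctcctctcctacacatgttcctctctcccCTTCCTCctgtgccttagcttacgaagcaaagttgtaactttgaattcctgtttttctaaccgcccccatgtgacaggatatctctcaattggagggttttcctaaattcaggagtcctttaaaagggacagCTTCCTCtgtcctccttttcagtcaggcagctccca

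Both strands were searched for the PU.1 motif GAGGAAG, which 10.4% of 21045 RefSeq promoters of this length hold. It was found in Pf4, 9 bases before the start, and in Mrc1, 168 and 36 bases before the start, each time on the other strand. It was also found at Cbr2 and at 1 of 2 F13a1 starts. The C/EBP motif TTGCNNAA, held by 9.18% of promoters, was found in Pf4 212 bases before the start and at 1 Cp start. The AP-1 motif TGANTCA (6.17% of promoters) was found at 1 Cp start and at the second Ms4a7 start, and TATAAA (11.7%) at 1 Cp start. None of the 10 member starts held the interferon-regulatory motif, GAAA and GAAA with any 2 bases between (2.98%), the ETS-IRF motif, GGAA and GAAA with any 2 bases between (2.19%), the MAF motif TGCTGA (14.9%), the MITF-TFE motif CACGTG (6.70%), the RUNX motif TGTGGT (12.2%) or the MEF2 motif, CTA and TAG with any 4 bases between (3.09%). The Ms4a7 stretch shown held none of the 10 motifs. These matches describe letters in the windows and not bound sites, and Lyve1 was not among the promoters matched.

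IRF8KO and WT microglia were compared at P9 and P14 to describe which sites of the 8 genes differ with Irf8. This contrast was used to choose the genes, so its values are a description and no test is given. Of the 33 sites, 29 were strong in at least 1 of the 9 juvenile libraries. Of these, 11 sites were strong in all 5 IRF8KO and in none of the 4 WT libraries, at F13a1, Mrc1, Ms4a7, Pf4, Cd163 and Cp. Over all 42894 regions strong in a juvenile library, 5.81% had that pattern. A single site, 28.6 kb past the end of Cd163, had the reverse pattern, which 5.77% of the regions had. A further 10 sites, at every gene but Pf4, were strong in all 9 libraries, as were 39.0% of the regions. The other 7 were strong in some libraries of 1 or both genotypes.

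By definition, the 11 sites also had this pattern when each age was taken alone. No further site of the 8 genes had it at either age. Of the regions, 10.4% at P9 and 10.7% at P14 had it. The IRF8KO lists were the stronger ones at P9 and the weaker ones at P14 by the −log10 p at rank 30000. The count of 11 depended on how a strong site was defined. It was 6 with the 20000 top peaks and 5 when peaks were ordered by the authors' fold. With the 50000 top peaks it was 8, of which 7 were among the 11. Mrc1 and Pf4 had no such site left with the 20000 top peaks. By fold, Mrc1, Pf4 and Cd163 had none. The count was 4 when the WT libraries had to have no summit within 400 bp among their 126070 top peaks. Those 4, at F13a1, Ms4a7, Cd163 and Cp, had a pattern found at 0.709% of the regions.

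Among the receptors, Mrc1 had 8 sites and only 1 of them was strong in IRF8KO alone. That site lies 40.0 kb inside the gene body, at chr2:14269173-14269573. It ranked 22534, 16305 and 28260 in the IRF8KO libraries at P9 and 15691 and 27703 at P14, against 128080 and 89738 in WT at P9 and 93507 and 100936 at P14. The 2 genotypes did not overlap there, and no library at 10 months had a peak. The strongest Mrc1 site, 8.5 kb past the gene's end, ranked between 454 and 2116 in all 9 juvenile libraries and its ranks overlapped between genotypes. A second site strong in all 9, 20.6 kb inside the gene body, ranked 3443, 6730, 5246 and 6194 in WT and 15879, 16519, 22268, 23865 and 13092 in IRF8KO, so it stood higher in every WT library although it counted as strong in both genotypes. A neighbouring site 15.4 kb inside the gene ranked 30649, 27296, 31611 and 23636 in WT against 48330, 56370, 56790, 84443 and 52275 in IRF8KO, again with no overlap. Of the inner Mrc1 sites, 1 thus ranked higher in IRF8KO and 2 ranked higher in WT.

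The Mrc1 start itself had a weak peak in both genotypes. At the site 126 bp before the start, the WT libraries ranked 34081 to 64300 and the IRF8KO libraries 26808 to 46138, which overlap. The other weak Mrc1 sites lay 709 bp before the start, 4.8 kb inside and 66.1 kb inside, and none of them was strong in every library of a juvenile group.

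Cd163 had 4 sites, and its 2 inner sites were strong in IRF8KO alone. The site 16.0 kb inside the gene body, chr6:124320416-124320816, had no peak in any WT library of any age or in any 5xFAD library. In IRF8KO it ranked 12385, 12930 and 11245 at P9 and 11459 and 7321 at P14. The adjoining site 17.0 kb inside, chr6:124321422-124321822, ranked 17700, 19482 and 21174 at P9 and 17133 and 18137 at P14 in IRF8KO. In WT it had no peak in 1 library at P9 and ranked 144965 in the other, and it ranked 98427 and 83516 at P14. Both inner Cd163 sites were without a peak in all 6 libraries at 10 months, and the Cd163 start had no peak within 500 bp in any of the 15 libraries.

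The other 2 Cd163 sites flank the gene. The site 31.2 kb before the gene ranked 128 to 554 in IRF8KO and 420 to 877 in juvenile WT, among the strongest peaks of these 9 lists. The site 28.6 kb past the end, chr6:124358934-124359334, was strong in WT, at ranks 22417, 23044, 18254 and 21435, and ranked 49581, 35367, 32221, 40696 and 32329 in IRF8KO. It was the 1 site with the reverse pattern, and its peak was still present in every IRF8KO library. Without the first IRF8KO library at P14 the count of such sites was 2, the second being the Cp site shared with Hps3 described below.

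Lyve1 had a single site, inside the gene body at chr7:110855595-110855995. It ranked 8723 to 18335 in juvenile WT and 14311 to 22307 in IRF8KO, so it was strong in all 9 libraries with overlapping ranks.

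Ms4a7 had 3 sites, and the 2 at the ends of the gene were strong in IRF8KO alone. The site 9 bp after the start, chr19:11335937-11336337, ranked 14337, 18083 and 10725 at P9 in the IRF8KO libraries and 22750 and 26573 in those at P14. In WT it ranked 140988 and 79549 at P9 and 85901 and 89389 at P14. The site 215 bp inside the other end of the gene, chr19:11321054-11321454, ranked 8990, 8033 and 8335 at P9 in the IRF8KO libraries and 9593 and 12033 in those at P14. Only 1 WT library, the second at P14, had a peak there, at rank 146472, with an authors' fold of 2.55 against 18.85 to 24.49 in the IRF8KO lists. Neither Ms4a7 site had a peak in any library at 10 months, and the groups did not overlap at either one. The site 14.1 kb before the start ranked 12119 to 17977 in juvenile WT and 20147 to 27300 in IRF8KO, so it was strong in both genotypes and stood higher in every WT library.

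Pf4 had 2 sites, and the one at its start, chr5:90772224-90772624, was strong in IRF8KO alone. It ranked 18242, 17922 and 24606 at P9 and 11048 and 15336 at P14 in IRF8KO, and 45727 and 91602 at P9 and 35976 and 54645 at P14 in WT. The ranks did not overlap, but every WT library had a peak at the start. Its summit in the IRF8KO libraries lay 11 to 16 bp before the RefSeq start. In WT the summit lay 13 bp after and 42 bp before the start at P9, and 13 bp before and 6 bp after it at P14. The PU.1 motif letters shown above thus lie near the summits of both genotypes, and binding there was not tested. The second Pf4 site, 841 bp before the start, ranked 60005 to 70865 in WT and 25918 to 37543 in IRF8KO. It was strong in 2 of 5 IRF8KO libraries, and with the 50000 top peaks it was strong in IRF8KO alone. With the 50000 top peaks the site at the start no longer had that pattern, since its WT ranks include 45727 and 35976. With the 20000 top peaks, or with peaks ordered by fold, neither Pf4 site was strong in IRF8KO alone.

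F13a1 had 3 sites strong in IRF8KO alone, all of them before the start. The nearest of the 3, 54.9 kb before the gene at chr13:37104913-37105313, had no peak in any juvenile WT library. It ranked 7478, 9815 and 6582 at P9 in the IRF8KO libraries and 11670 and 9613 in those at P14, with authors' folds of 19.35 to 30.58. The next, 70.2 kb before the gene at chr13:37120216-37120616, ranked 16506, 16080 and 15140 at P9 and 15929 and 12953 at P14 in IRF8KO, and 114607, 73829, 41027 and 63107 in WT. The farthest, 80.6 kb before the gene at chr13:37130647-37131047, ranked 12615, 12307 and 17128 at P9 and 11104 and 8525 at P14, against 47391, 59055, 71377 and 54016 in WT. The 2 genotypes did not overlap at any of the 3.

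The F13a1 site 6.6 kb before the start was strong in all 9 juvenile libraries, at ranks 5110 to 9644 in WT and 2876 to 6188 in IRF8KO. The 2 RefSeq starts of F13a1 had weak peaks only, the best at rank 53073 in a WT library at 10 months. The remaining 2 F13a1 sites, inside the gene body, were strong in the first X04 positive library alone, at ranks 25186 and 29546, and no other library had a summit within 200 bp of either. The site at 80.6 kb was the farthest of the 33 that lay inside the 100 kb limit, and the nearest region beyond it lay 108.5 kb from F13a1 and was not strong in any juvenile library. With a limit of 20 kb or of 50 kb, the 3 far F13a1 sites dropped out and 8 sites stayed strong in IRF8KO alone.

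Cp had 7 sites, and the 2 closest before the gene were strong in IRF8KO alone. At the site 8.2 kb before the gene, chr3:19948523-19948923, no juvenile WT library had a peak, and the IRF8KO libraries ranked 27006, 26032 and 18109 at P9 and 4691 and 9850 at P14. The site 2.9 kb before the gene, chr3:19953883-19954283, ranked 11072, 7724 and 9178 at P9 and 1990 and 2339 at P14 in IRF8KO, and 40697, 40163, 57018 and 58392 in WT. Within IRF8KO, both libraries at P14 ranked higher than all 3 at P9 at both Cp sites, and so they did at Pf4 and at the F13a1 site 80.6 kb before the gene. Both ranked lower at the 2 Ms4a7 sites, and at the other 5 of the 11 sites the ages overlapped. With 3 libraries against 2, an exact test cannot go below a p of 0.1, so these differences are a description.

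The other Cp sites were open in WT as well. The site 62.2 kb before the gene ranked 1192 to 1594 in juvenile WT and 1897 to 2754 in IRF8KO, among the strongest peaks of both. A site 31.0 kb inside the gene ranked 3348 to 6018 in WT and 7653 to 18724 in IRF8KO, strong in both, with every WT library higher. The site 52.0 kb before the gene was strong in all 4 juvenile WT and in 4 of 5 IRF8KO libraries. The site at chr3:20005571-20005971 was strong in all 4 WT libraries, at ranks 14718 to 22746, and in 1 of 5 IRF8KO libraries, at ranks 21607 to 41458 over the 5. That last site and the one at chr3:20004541-20004941 lie inside both Cp and the overlapping gene Hps3 and could not be assigned to either. The Cp starts had no peak within 500 bp except in 1 IRF8KO library at P9, at rank 147540.

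Cbr2 had 2 sites, both strong in all 9 juvenile libraries and neither one at its start. The site 1.7 kb before the start ranked 18175 to 25164 in WT and 9644 to 16346 in IRF8KO, with no overlap. The site 405 bp inside the gene's other end ranked 19441 to 28903 in WT and 20007 to 28844 in IRF8KO, with overlap. No library had a peak within 500 bp of the Cbr2 start.

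**Figure D1:**
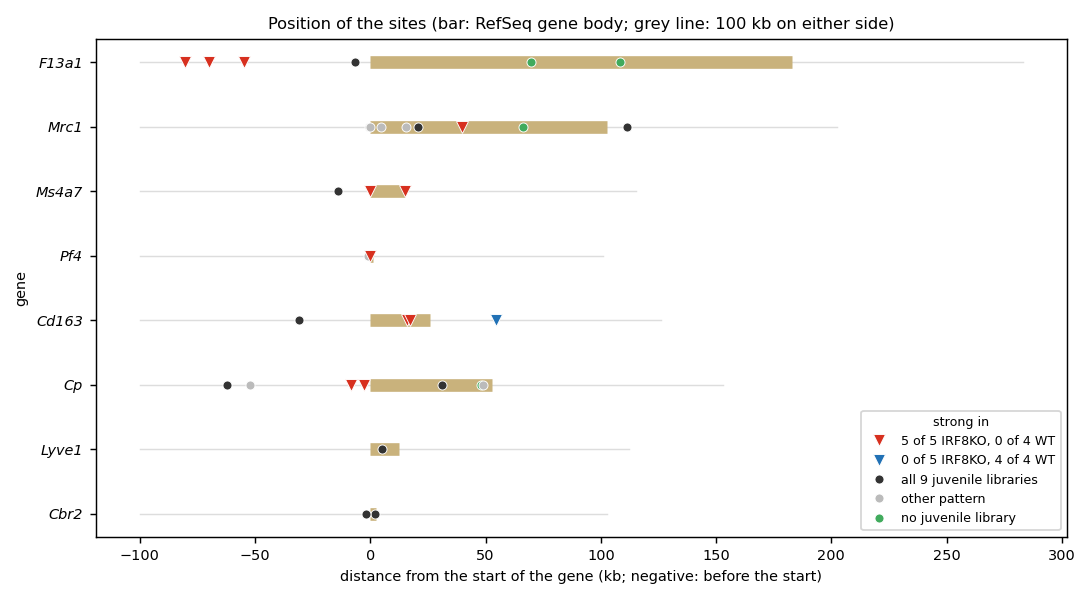
Distance in kb of each site from the end of the RefSeq gene body where its gene starts (x axis, negative before it). Each row is a gene, and sites are coloured by their pattern over the 9 juvenile libraries. Lyve1 had no start in the promoter table, so its distance is from the end of the gene body with the lower coordinate, and sites closer than the width of a symbol overlap. Of the 11 sites strong in IRF8KO alone, 6 lie before the start and 5 inside the gene body.

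The 11 sites shared little in position. Of these, 5 lay inside gene bodies and 6 before the start, and 3 were within 1 kb of either end of a gene, 2 of them at Ms4a7. The other 8 were farther from both ends. The strong sites at the 8 genes summed to 13 to 14 in each juvenile WT library, to 21, 23 and 22 in IRF8KO at P9, and to 24 and 25 in IRF8KO at P14. By gene, F13a1 had 1 strong site in each juvenile WT and 4 in each IRF8KO library, Ms4a7 had 1 and 3, and Cd163 had 2 and 3. Pf4 had none in WT and 1 or 2 in IRF8KO. Mrc1 had 2 or 3 in WT and 3 to 5 in IRF8KO, and Cp had 4 in WT and 4 to 6 in IRF8KO, so these 2 genes overlapped. Lyve1 had 1 and Cbr2 had 2 in all 9 libraries.

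**Figure D2:**
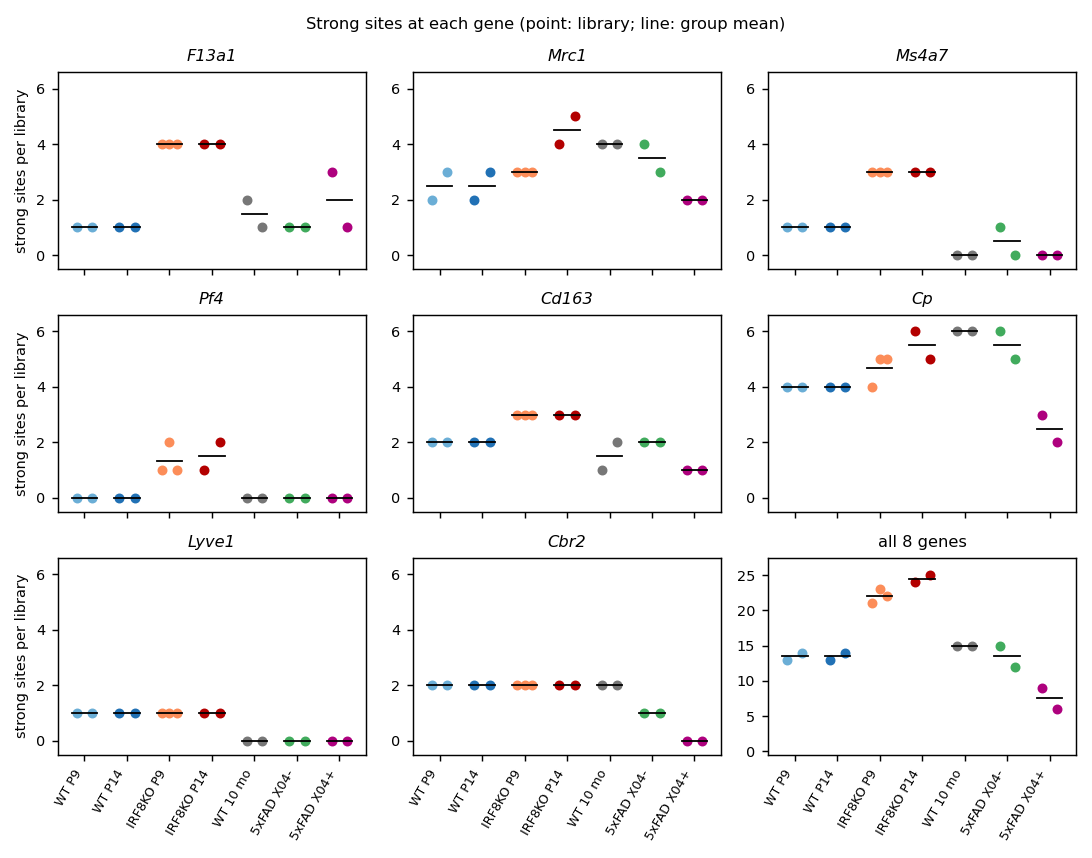
Number of strong sites (y axis) at each of the 8 genes in each library, grouped by genotype, age and dye. F13a1, Ms4a7, Pf4 and Cd163 sit higher in all 5 IRF8KO libraries than in the 4 juvenile WT libraries, Lyve1 and Cbr2 are level, and Mrc1 and Cp overlap.

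P9 and P14 were compared over both genotypes by a two-sided exact permutation test of strong presence, with age labels exchanged within genotype, because age was not used to choose the genes. Of the 65410 regions, 627 could reach the smallest p, 0.0167, and none passed at an adjusted p under 0.05. Of the 627, 31 had an unadjusted p under 0.05, and the smallest adjusted p was 0.337. A call needed 209 of the 627 regions at the smallest p, and 31 were there. The lack of calls thus does not show that no region changes with age. No site of the 8 genes was among the 627, so the test says nothing about them. Described alone, 13 of the 14 sites strong in any WT juvenile library were strong in all 4 of them, beside 68.1% of the regions. In IRF8KO, 21 of 27 were strong at both ages in every library (58.9% of the regions), and no site was strong in every library of 1 age and none of the other in either genotype. The regions with such a change were 1.85% higher and 1.86% lower at P14 in WT, and 2.22% and 2.69% in IRF8KO.

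The 10-month libraries were not used to choose the genes. Groups of 2 against 2 cannot go below an exact p of 0.333, and 2 against 4 not below 0.067, so these comparisons are descriptions. They were read first at the 11 sites strong in juvenile IRF8KO alone. The Cp site 2.9 kb before the gene was strong in both WT libraries at 10 months, at ranks 14105 and 18601, although its best rank in juvenile WT was 40163. It also ranked 26019 and 16845 in X04 negative and 25933 and 169702 in X04 positive cells. The F13a1 site at 80.6 kb ranked 25267 in the first WT library and 48515 in the second. The other 9 sites were not strong in any of the 6 libraries, and 7 of the 11 were absent from all 6. Over the genome, 2494 regions had the IRF8KO pattern, and 67.2% of those were strong in none of the 6 libraries and 17.6% absent from all 6. In both WT libraries at 10 months, 10.5% of them were strong, and the shares absent from both libraries were 28.5% for WT, 24.7% for X04 negative cells and 58.6% for X04 positive cells.

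Between juvenile and 10-month WT, 3 of the 18 sites strong in a WT library were strong in both older libraries and no juvenile one, against 3.98% of all regions. They were the Cp site at 2.9 kb, the Mrc1 site 66.1 kb inside the gene and 1 Cp site shared with Hps3. The Mrc1 site ranked 29490 and 29054 at 10 months and 59195 to 75604 in juvenile WT. The shared Cp site ranked 29965 and 21260 against 35910 to 46149. Both sites lay close to the limit of 30000 in the first WT library. Over all 15 libraries, the member ranks just inside that limit were 29965 and 29490 at these 2 sites and 29546 at F13a1 in an X04 positive library. Just outside were 30129 at Ms4a7 in WT at 10 months, 30264 at Cd163 in an X04 positive library and 30289 at Mrc1 in IRF8KO at P14.

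In the reverse direction, 2 of 18 sites were strong in all 4 juvenile WT and in neither 10-month WT library, against 4.30% of the regions. They were Lyve1, at 43048 and 44180 against 8723 to 18335, and the Ms4a7 site 14.1 kb before the start, at 52095 and 30129 against 12119 to 17977. The Lyve1 site had ranks of 71842 and 46367 in X04 negative cells, and in X04 positive cells it had no peak in 1 library and rank 48371 in the other. It was thus strong in all 9 juvenile libraries and in none of the 6 at 10 months. A further 10 of the 18 sites were strong in all 6 WT libraries (51.4% of the regions). The 10-month mice had received the dye and the juvenile mice had not, so age and dye cannot be told apart.

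X04 negative 5xFAD cells differed from WT at 1 of 17 sites. The Cbr2 site before the start ranked 20740 and 24157 in WT and 34923 and 34599 in X04 negative cells, and 2.73% of the regions had that pattern. No member site was strong in both X04 negative and neither WT library (3.06% of the regions), and 11 of 17 were strong in all 4 libraries (60.3%). With the 20000 and the 50000 top peaks, the sites strong in both X04 negative libraries numbered 6 and 21 against 12.

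X04 positive cells were compared with X04 negative cells of the same line. No member site was strong in both X04 positive and neither X04 negative library (3.53% of the regions), although the 2 inner F13a1 sites were strong in the first X04 positive library. Strong in both X04 negative and neither X04 positive library were 5 of 17 sites, at Mrc1, Cd163, Cp (2 sites) and Cbr2, and 12.8% of the regions had this pattern. Of the 5, the Cp site 52.0 kb before the gene was also absent from both X04 positive lists, and 4.41% of the regions were strong in both X04 negative and absent from both X04 positive libraries. The Cp site 31.0 kb inside the gene ranked 7003 and 5909 in X04 negative and 42632 and 126586 in X04 positive cells. The 4 sites strong in all 4 libraries (22.2% of the regions) were the ones at Cd163 31.2 kb before the gene, Mrc1 8.5 kb past the end, Cp 62.2 kb before the gene and F13a1 6.6 kb before the start. Without the second X04 positive library, 9 sites in place of 4 were strong there. The X04 positive lists were the weakest, and the 5 neuronal marker genes had 9 and 12 strong sites in them against 3 in each X04 negative library; the part of either in these values was not tested.

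Other genes of border-associated macrophages were counted as a list of 20, of which 18 had a strong site in some library. Of their 63 regions strong in a juvenile library, 10 were strong in IRF8KO alone, or 15.9%, beside 5.81% of all regions. The list was chosen with earlier results of these data known, so this share is a description. In the other marker lists it was 11.1% for astrocytes (1 of 9), 10.5% for endothelial and mural cells (2 of 19) and 7.69% for oligodendrocytes (1 of 13). It was 4.35% for monocytes (1 of 23), 1.72% for microglia (1 of 58) and 0 for neutrophils (0 of 7) and neurons (0 of 4). Most of these lists thus rest on few regions. The 10 regions lay at 8 genes, namely Clec10a, Clec4n, Colec12, Dab2, Ms4a4a, Ms4a6b, Tgfbi and Wwp1, with 2 regions each at Clec4n and Colec12. Of the lectin receptors, Clec4n had a region 6.0 kb from the gene at IRF8KO ranks 5039 to 9713 and with no peak in any WT library of either juvenile age. Both Colec12 regions, at IRF8KO ranks 3912 to 7241 and 6348 to 21907, also had no WT peak, and the Clec10a region ranked 20673 to 28776 against 52719 at best in WT. The region of the endocytic adaptor Dab2 ranked 9785 to 20628 in IRF8KO, with 126460 the best of its WT ranks.

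The membrane genes Ms4a4a and Ms4a6b had 1 such region each, at IRF8KO ranks 9878 to 13550 and 10475 to 21779 and best WT ranks of 50193 and 79475. Ms4a6b also had the 1 region of the list with the reverse pattern, at WT ranks 17513 to 20915 and IRF8KO ranks 36578 to 68295. The matrix protein gene Tgfbi had a region at ranks 11496 to 17834 against 60928, and the ubiquitin ligase gene Wwp1 had one at 10134 to 20841 against 33807. Summed strong sites of the list were 27 to 32 in juvenile WT and 41 to 47 in IRF8KO libraries, without overlap. Cd209f and Blvrb had no strong site in any of the 15 libraries, and Folr2 had none in IRF8KO and 0 or 1 in juvenile WT. Colec12, Ms4a4a and Cd38 had none in juvenile WT, with 2 to 5 in IRF8KO at Colec12, 1 to 2 at Ms4a4a and 0 to 1 at Cd38.

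**Figure D3:**
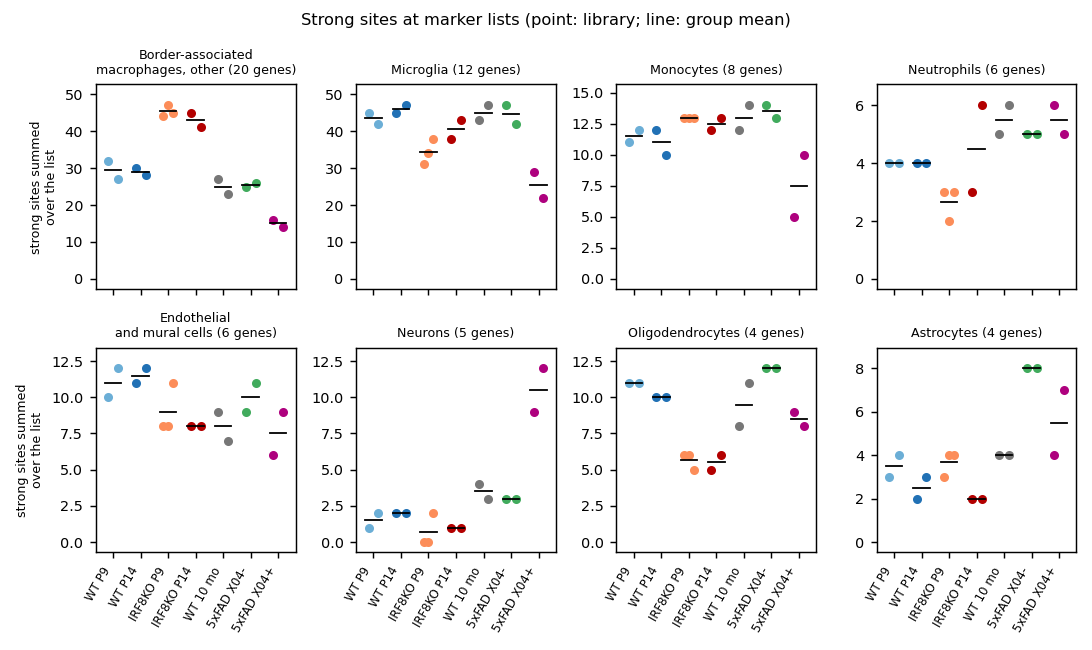
Strong sites summed over the genes of each marker list (y axis, from 0) in each library (points) with the mean of the group (line). The list of 20 other border-associated macrophage genes sits at 41 to 47 in IRF8KO and 27 to 32 in juvenile WT, and the neuronal list is highest in the 2 X04 positive libraries.

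Listed microglia genes had strong sites in both genotypes, which does not test the sort label. The 12 genes summed to 42 to 47 strong sites in juvenile WT and 31 to 43 in IRF8KO, with 25 of 58 regions strong in all 9 libraries. At Sall1 and Slc2a5, 5 regions had the pattern strong in WT alone, and P2ry12 had 1 strong in IRF8KO alone. Sall1 had 4 to 5 strong sites in each juvenile WT library and none in any IRF8KO library, and P2ry13 had none in any of the 15 libraries. Monocyte genes summed to 10 to 12 in WT and 12 to 13 in IRF8KO, with Ly6c2 and Chil3 at 0 in both. Of that list, F10 had 0 in WT and 0 to 2 in IRF8KO, and Itga4 had 3 to 4 and 5 to 6. Fn1 had 1 to 2 in WT and 0 to 1 in IRF8KO, and Vcan had 1 to 2 and 1. Neutrophil genes summed to 4 and to 2 to 6, with S100a8, Mpo and Elane at 0 in both. S100a9 and Retnlg each had 0 in juvenile WT and 0 to 1 in IRF8KO, and Csf3r had 4 and 1 to 4. Endothelial and mural genes summed to 10 to 12 and 8 to 11, neuronal genes to 1 to 2 and 0 to 2, and oligodendrocyte genes to 10 to 11 and 5 to 6. Astrocyte genes summed to 2 to 4 in both, but single genes of that list differed. Aldh1l1 had 0 in juvenile WT and 2 to 4 in IRF8KO, and Slc1a2 had 2 to 4 in WT and 0 in IRF8KO. What part a change in the mix of sorted cells has in the sites of the 8 genes was not tested.

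Below the 30000 top peaks, the 8 genes had 200 further positions with a peak, 105 of them in 1 library only. At 11 of these, all 5 IRF8KO libraries and none of the 4 juvenile WT libraries had a peak: 4 at F13a1, 4 at Mrc1, 2 at Ms4a7 and 1 at Cd163. Over all 580819 such positions of the genome, 0.596% had that pattern. The same contrast chose the genes, so nothing is read from this. The 3 weak F13a1 positions inside the gene body had best ranks of 64104, 47436 and 53348, and the Cd163 position, at rank 39687 at best, lies beside the 2 inner Cd163 sites. The reverse pattern was found at 2 positions, beside 0.576% over the genome. Counting every peak, the 8 genes had 60 to 71 peaks in each juvenile WT list, 107 to 123 in IRF8KO at P9 and 79 to 90 in IRF8KO at P14, from lists of 140147 to 162510 peaks in WT and 139860 to 169134 in IRF8KO. At 10 months the WT lists held 45 to 48, those of X04 negative cells 55 to 58 and those of X04 positive cells 51 to 63.

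The counts in the surroundings of the 8 genes differed, and these differences were not tested. Of all 65410 regions of the genome, 2494 were strong in IRF8KO alone and 2473 in WT alone. Within 200 kb of Pf4, 10 of 29 regions nearest to other genes were strong in IRF8KO alone, 4 at Cxcl1, 2 at Cxcl5, 1 at Cxcl3, which are chemokine genes of the same cluster, and 3 at Rassf6. Within 200 kb of Ms4a7, 5 of 13 such regions were strong in IRF8KO alone, at Ms4a4a, Ms4a4b, Ms4a4c, Ms4a6b and Gm8369, and 2 were strong in WT alone, at Ms4a1 and Ms4a6b. The Ms4a4a and Ms4a6b regions are also counted in the list of 20 genes. Near Mrc1, 3 of 15 were strong in IRF8KO alone, all nearest to Tmem236 and 24.9 to 64.6 kb before Mrc1. Around F13a1 none of 6, around Lyve1 none of 26 and around Cd163 none of 14 had that pattern. Cp had 1 of 11, at Gyg, and Cbr2 had 1 of 33, at Mafg. These neighbours were named after their values were seen.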

How the data were processed

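The data are peak lists of ATAC-seq in 15 libraries of sorted mouse microglia in 7 groups. Per the submitters' processing notes, bcl2fastq, Bowtie2, MACS2 2.2.7.1 and deepTools were used with mm10, with no order or settings given. The authors deposited 1 list per library, so peaks were called per library and not on pooled libraries. The authors deposited a fold per peak, which is a ratio, a −log10 p, a −log10 q and the summit's offset in bp. These values are the authors' own and were used only within a list, to order or describe its peaks. Depth in reads was not used here, and intervals for counting error are left out.

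Summits were ranked by −log10 p within each list on chromosomes 1 to 19 and X. Regions were made from the 30000 top summits of each list, in order of rank, and merged within 400 bp. A region was strong where such a summit lay within 200 bp, and absent where none of the 126070 top peaks, the shortest list's length, lay within 400 bp. Each region went to the protein-coding gene whose body was closest, up to 100 kb away (RefSeq, GRCm38.p6), or to every gene at the same distance, and 91.3% had a gene. All 8 genes were found. RefSeq promoters matched 7 of the 8. The age test used 60 arrangements and Benjamini-Hochberg adjustment over regions whose totals can reach the smallest p. The genes and marker lists were chosen with earlier results of these data known. Named genes were the 8 members, listed border-associated macrophage genes with a region strong in 1 genotype alone, and the 5 genes most alike in their strong sites over the libraries. Values in the text are of libraries, and no label ties them to separate animals, so a p-value covers the spread between libraries, possibly only a technical one. Alternatives were 20000 and 50000 top peaks, order by fold, other summit and gene distances, each library left out and, chosen after seeing the data, regions without X04 positive libraries and absence in place of not strong. The age test was tried on simulated strong presence, made by shuffling libraries within genotype and planting regions that change with age. The outcome of that trial is not given here, so it does not show how well the test finds such regions. The rules for strong, absent and nearest gene were not tried on simulated data. Python 3.11.15, numpy 2.4.6, pandas 2.3.3, scipy 1.17.1 and matplotlib 3.10.9 were used.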

Additional observations from a re-analysis of the deposited data

How the results depend on the processing

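With 20000 top peaks, 6 sites were strong in IRF8KO alone in place of 11, 5 were strong in all 9 juvenile libraries in place of 10, and 8 and 6 were strong in both WT and both X04 negative libraries at 10 months in place of 14 and 12. With 50000, 8 were strong in IRF8KO alone, 7 of them among the 11. At that setting 0 were strong in WT alone in place of 1, and 21 in both X04 negative libraries. Ordering by the authors' fold left 5 sites strong in IRF8KO alone. With genes within 20 kb, 0 were strong in WT alone and 2 in place of 4 in both X04 positive libraries. Requiring absence in place of not strong left 4 strong in IRF8KO alone and 0 in WT alone. The cause was not tested where it is not part of the setting itself. Leaving out each library in turn gave 11 to 11 sites strong in IRF8KO alone and 10 to 11 in all 9. For WT alone it gave 1 to 2 (2 without the first IRF8KO library at P14). At 10 months it gave 15 to 15 in WT, 12 to 15 in X04 negative and 6 to 9 in X04 positive cells. The regions and ranks were kept as they were, so leaving out a library could only keep or raise these counts. A fall could not have been seen. The age test called 0 regions under every setting run, which is not read as a lack of change with age. With the replicate block, whose smallest p is 0.125, and without any 1 of the IRF8KO libraries at P9, whose smallest p is 0.0556, it could not have called any. Same-numbered libraries did not deviate together, so the numbers were not taken as pairs. Absence from a list cannot be read as closed chromatin, since it also depends on depth.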

Other observations

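The genes whose numbers of strong sites over the 15 libraries were most like the sum at the 8 genes, among 2363 genes whose number ranged by 4 or more, were Relch and Gm46353 with a Pearson r of 0.96 each, and Tmem131, Ch25h and Nrp1 with 0.95 each. The points share libraries and list strength, so no p is given. Ch25h, which makes 25-hydroxycholesterol, had 2 strong sites in every juvenile WT library and 5 to 6 in IRF8KO. Nrp1, a co-receptor of semaphorins and VEGF, had 4 to 5 in WT and 7 to 10 in IRF8KO. Tmem131 had 4 to 6 in WT and 9 in each IRF8KO library.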
